A study of Homo sapiens with 12 samples.

Results

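What all-trans retinoic acid (ATRA) did to gene expression in cells that also received palbociclib was read from 6 of the 12 RNA sequencing libraries of the study. The 3 libraries from cells given both drugs, called the combination, were set against the 3 libraries from cells given palbociclib alone, matched by replicate number. Genes entered the comparison if they reached at least 5 RPKM (reads scaled to gene length and to the mapped reads of the library) in at least 3 of the 12 libraries, which kept 7820 of the 58233 genes listed. Every library came from HL-60, an established human acute myeloid leukaemia line, grown in medium with serum and not genetically altered. Palbociclib was given at 500 nM, the combination was the same dose with 100 nM ATRA, and the treatments lasted 3 h. The other 6 libraries were 3 from untreated cells and 3 from cells given 100 nM ATRA alone, and they supplied the ATRA effect without palbociclib. The labels do not say whether replicates were separate cultures, so each p-value measures only the spread between these libraries, which may be technical.

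ATRA is a vitamin A derivative that binds retinoic acid receptors, transcription factors that sit on DNA as heterodimers with retinoid X receptors. Without ligand they hold co-repressors at their target genes, and ligand exchanges these for co-activators. In immature myeloid cells the target genes belong to granulocytic maturation, and HL-60 is a classical cell model of that response. Palbociclib inhibits the kinases CDK4 and CDK6, which release E2F transcription factors from the retinoblastoma protein at the start of the cell cycle.

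The RPKM values were rounded to whole numbers by the authors, so a gene listed at 0 lay below the rounding step and the depth of each library could not be read from the table. The values of a library summed to between 358455 and 390247 RPKM. Among the defining markers of myeloid precursors MPO was listed at 1099 to 1579 RPKM in the 6 libraries compared, PRTN3 at 195 to 310 and SPI1 at 93 to 112, whereas ELANE was listed at 0 or 1. Of 22 markers of other cell types, 21 were listed at 0 in every palbociclib library and 20 in every combination library, with summed levels of 5 to 8 and 8 to 11 RPKM. In the treated groups replicate 1 stood apart from replicates 2 and 3, and libraries with the same number deviated together from their group means, with correlations across genes of 0.438 to 0.702 between palbociclib and combination. The replicate number was a term of the model because the comparison pairs the libraries by that number.

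Adding ATRA to palbociclib raised 280 genes and lowered 201 when the limma adjusted p-value had to be under 0.001, which is 3.58% and 2.57% of the genes tested and 6.15% together. The increases were larger than the decreases. The median log2 fold change was 0.89 among genes that rose, a 1.85-fold higher level, and -0.58 among genes that fell, or 66.8% of the level with palbociclib. Changes above 1 on the log2 scale were found for 128 of the genes that rose and 30 of those that fell, and changes above 2 for 43 and 3. Every one of the 481 genes moved in the same direction in all 3 replicate pairs, and the libraries of the groups did not overlap for 276 of the 280 and 194 of the 201, which being called nearly fixes, and for 1417 of all 7820 genes tested (18.1%). Of the genes that rose, 72 had no palbociclib library at 5 RPKM, and of those that fell, 25 had no combination library at 5 RPKM. Such genes passed the filter without any library of their lower group. These numbers depended on the libraries and the fit. In a fit of the 6 libraries alone no gene passed 0.001, although 680 were higher and 752 lower at an adjusted p-value under 0.05 and 1238 and 1562 at an unadjusted p-value under 0.05. Without the replicate number in the model 165 genes were higher and 78 lower. Leaving out any 1 of the 6 libraries left 114 to 181 genes higher and 34 to 116 lower, and leaving out replicate 2 or replicate 3 in every group left 2 and 0 or none. Of the genes named further on, CLEC12A, FCGR1A, LYZ, SERPINB10, VDR, IER5, MLX, URB2, POLR1B, NOP56, BMF, MCL1, SAMHD1, DUSP6, SREBF1, JARID2, LBR, SLC2A6 and SLC2A1 were not called without the replicate number, with adjusted p-values from limma of 0.00110 for POLR1B to 0.0610 for SREBF1, and others that lost their call are given with their values.

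FGR, HIC1 and DHRS3 had the highest fitted changes among the genes that rose. FGR, a Src-family tyrosine kinase of myeloid cells (chromosome 1, 27612064 to 27635185 on GRCh38), was listed at 0, 0 and 1 RPKM with palbociclib and at 27, 44 and 53 RPKM with the combination (adjusted p = 7.77e-05 from limma). DHRS3 (chromosome 1, 12567910 to 12618210), which reduces retinal back to retinol, was listed at 1, 1 and 0 RPKM with palbociclib and 41, 50 and 49 with the combination (adjusted p = 0.000933 from limma, and 0.00142 without the replicate number). HIC1 (chromosome 17, 2054154 to 2063241), a transcriptional repressor, was listed at 0 in each palbociclib library and at 8, 12 and 9 RPKM with the combination (adjusted p = 7.77e-07 from limma). For these 3 genes nearly every library without ATRA was at or near 0 and every library with the combination was well above it, and no fold is given because it would rest on the pseudocount. LILRA5, a leukocyte immunoglobulin-like receptor, and AC011899.2, a long noncoding RNA gene on chromosome 7, were also listed at 0 in each palbociclib library, and stood at 4, 8 and 9 RPKM and 4, 8 and 8 RPKM with the combination.

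CCL2 (chromosome 17, 34255274 to 34257208), a chemokine that attracts monocytes, had the smallest p-value. Its values were 13, 13 and 15 RPKM with palbociclib and 226, 265 and 247 RPKM with the combination, a 17.9-fold increase (log2 fold change 4.16, standard error 0.07, adjusted p = 1.28e-08 from limma). CD1D, which presents lipid antigens, went from 3, 2 and 2 RPKM to 44, 54 and 56 RPKM (log2 fold change 4.42, standard error 0.17, adjusted p = 1.04e-06). ASB2, a subunit of an E3 ubiquitin ligase and a known early retinoic acid target, was listed at 1 RPKM in each palbociclib library and at 12, 18 and 18 RPKM with the combination (log2 fold change 3.85). In none of these 3 genes did any palbociclib library come near a combination library. ICAM1, the ligand of leukocyte integrins, rose from 1 RPKM in each palbociclib library to 8, 20 and 16 RPKM. SLC2A5, a fructose transporter, rose from 4, 3 and 3 RPKM to 37, 48 and 43 RPKM, and MYBPH, a myosin-binding protein, from 11, 15 and 12 RPKM to 112, 176 and 194 RPKM. In each of these genes and in FGR the combination library of replicate 1 was the lowest of the 3. Over the 280 genes that rose the median log2 change was 0.83 in pair 1 and 0.98 in pairs 2 and 3. Over the 201 that fell it was -0.51 in pair 1 and -0.64 in pairs 2 and 3. NCF1C, a pseudogene copy of NCF1, rose from 4, 3 and 4 RPKM to 30, 55 and 56 RPKM, and since reads can be shared between near-identical copies the split between NCF1 and NCF1C is uncertain.

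The largest decreases were smaller than the largest increases. SERPINB2 (chromosome 18, 63871692 to 63903888), an inhibitor of plasminogen activators, fell from 8, 9 and 16 RPKM with palbociclib to 1 RPKM in each combination library (log2 fold change -3.27, standard error 0.20, adjusted p = 1.10e-05 from limma). FAM46C, a noncanonical poly(A) polymerase, fell from 9, 10 and 11 RPKM to 2, 1 and 2 RPKM (log2 fold change -2.57). PTGER4, a prostaglandin receptor, fell from 6, 6 and 7 RPKM to 1 RPKM in each combination library (log2 fold change -2.54). In all 3 genes the combination libraries lay far below every palbociclib library, but at 1 or 2 RPKM the rounding step limits how well the size of the fall is known. TAGAP fell from 11, 13 and 14 RPKM to 3, 3 and 4 RPKM, and FOSL2, a subunit of the AP-1 transcription factor, from 7, 11 and 9 RPKM to 2, 3 and 3 RPKM. GATA2, a transcription factor of early haematopoietic progenitors, fell from 6, 10 and 12 RPKM to 2, 3 and 4 RPKM (log2 fold change -1.60, adjusted p = 4.27e-05 from limma). PLD6, a mitochondrial phospholipase, fell from 16, 13 and 17 RPKM to 5, 3 and 7 RPKM, and NAV3, a neuron navigator protein, from 12, 18 and 21 RPKM to 4, 6 and 8 RPKM. GATA2, PLD6 and NAV3 were not called without the replicate number in the model (adjusted p = 0.00815, 0.00239 and 0.00498 from limma). LGR4, SERPINB8, CDC42EP3 and DLX1 completed the 12 largest decreases with log2 fold changes of -1.50, -1.47, -1.35 and -1.28.

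**Figure D1:**
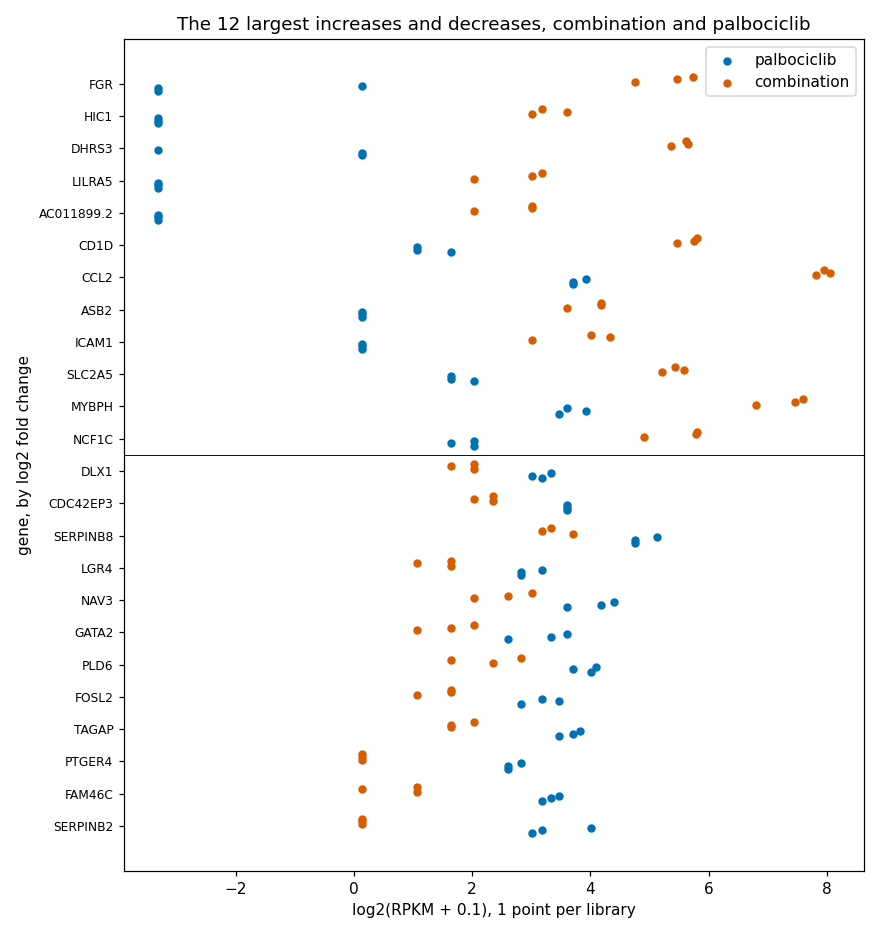
Level of the 12 largest increases (above the line) and the 12 largest decreases (below it) as log2(RPKM + 0.1), with 1 point for each of the 3 palbociclib and 3 combination libraries. The groups do not overlap in any of the 24 genes, which the rule for choosing them required, and the leftmost points are values listed at 0 RPKM.

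The 250 bases before the RefSeq start site of these genes were searched for the letters that retinoic acid receptors bind, to show what the promoters of genes raised by their ligand hold. The motif was AGGTCA or its variant AGTTCA, or the variants GGGTCA or GGTTCA, on either strand, and overlapping matches were counted. It was present before 62 of the 204 genes that rose and have a RefSeq promoter (30.4%), before 47 of the 155 that fell (30.3%) and before 1476 of all 5256 tested genes with a promoter (28.1%). Both shares lay near that of all genes. Direct repeats of the motif spaced by 1, 2 or 5 bases, looked for from 250 bases before to 50 bases after the start, were in 0 of the 204 and 0 of the 155, and in 10, 0 and 2 of the 5256. A match is a description of the letters and not a binding site, and no match says only that these letters are not in this window. The windows of the 4 genes with a match among the largest increases are printed in the direction of transcription, on GRCh38.p14, with the matches in capitals, so that the position of the motif can be seen. They are chr1:158179697-158179946 on the plus strand for CD1D, chr19:10270870-10271119 on the plus strand for ICAM1, chr19:54313167-54313416 on the minus strand for LILRA5 and chr1:203175827-203176076 on the minus strand for MYBPH.
CD1D: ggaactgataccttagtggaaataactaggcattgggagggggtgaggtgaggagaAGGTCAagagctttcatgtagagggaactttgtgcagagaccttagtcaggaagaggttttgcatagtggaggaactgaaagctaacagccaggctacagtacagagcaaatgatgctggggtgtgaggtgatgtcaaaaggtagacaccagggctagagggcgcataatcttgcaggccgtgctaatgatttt
ICAM1: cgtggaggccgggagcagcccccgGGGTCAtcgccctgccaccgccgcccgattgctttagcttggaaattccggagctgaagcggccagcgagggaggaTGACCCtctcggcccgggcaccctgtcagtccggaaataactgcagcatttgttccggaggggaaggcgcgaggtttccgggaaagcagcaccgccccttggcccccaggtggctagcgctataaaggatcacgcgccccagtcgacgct
LILRA5: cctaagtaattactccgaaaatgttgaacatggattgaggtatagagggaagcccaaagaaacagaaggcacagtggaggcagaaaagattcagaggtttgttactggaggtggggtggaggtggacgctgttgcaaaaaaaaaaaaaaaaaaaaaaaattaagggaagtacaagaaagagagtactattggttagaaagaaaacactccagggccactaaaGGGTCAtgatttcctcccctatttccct
MYBPH: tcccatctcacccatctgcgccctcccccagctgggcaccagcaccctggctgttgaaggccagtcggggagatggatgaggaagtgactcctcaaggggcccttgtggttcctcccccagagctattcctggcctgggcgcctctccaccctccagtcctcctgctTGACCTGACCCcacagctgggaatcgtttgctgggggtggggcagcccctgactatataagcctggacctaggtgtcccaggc
In MYBPH the capitals are 2 matches that share a base, and DHRS3, FGR, ASB2 and SLC2A5 had no match in the same window. Named decreases held matches as well, before 5 of the 10 with a window written, namely CDC42EP3, DLX1, FOSL2, GATA2 and SERPINB2, beside 4 of the 8 increases.

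Of 13 tested members of the list of retinoid receptors and coregulators, 3 rose and 1 fell, with a median log2 fold change of 0.15 against 0.00 over all genes tested. Over all genes tested 3.58% were called higher and 2.57% lower, and this and the later list counts stand beside these shares. RARA, the retinoic acid receptor alpha, rose from 11, 12 and 11 RPKM to 14, 19 and 18 RPKM (log2 fold change 0.57), while RXRA, its heterodimer partner, fell from 12, 15 and 16 RPKM to 8, 9 and 9 RPKM (log2 fold change -0.71). The co-activator NCOA3 rose from 18, 31 and 29 RPKM to 39, 73 and 67 RPKM, and NRIP1, a co-repressor recruited by ligand-bound receptors, from 3, 3 and 4 RPKM to 7, 15 and 15 RPKM. In NCOA3 and NRIP1 the combination library of replicate 1 stood well below the other two but above every palbociclib library. All 4 calls were lost without the replicate number (adjusted p = 0.00615, 0.00251, 0.0229 and 0.00346 from limma, in the order RARA, RXRA, NCOA3 and NRIP1). In retinoid metabolism DHRS3 was the 1 call among 6 tested members. The retinoic acid hydroxylases CYP26A1 and CYP26B1, the receptor RARB and the retinol transporter STRA6 were listed at 0 RPKM in all 12 libraries.

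Of the 36 genes listed as responding to ATRA in myeloid cells, 25 were tested, 17 rose and none fell, with a median log2 fold change of 1.57. This list was written from general knowledge with earlier results of these data known, so its direction is not independent evidence. Besides the genes above it held CD38, an ectoenzyme of the cell surface, which rose from 3, 2 and 3 RPKM to 15, 17 and 21 RPKM (log2 fold change 2.69). SLA, an adaptor that dampens receptor signalling, rose from 5, 7 and 7 RPKM to 33, 42 and 38 RPKM, and SERPINB1, an inhibitor of neutrophil proteases, from 21, 15 and 17 RPKM to 69, 77 and 88 RPKM. In these 3 genes the groups lay far apart. TGM2 was listed at 0 RPKM in all 12 libraries. ITGAM, which encodes the surface marker CD11b, was too low to be tested, at 0, 0 and 1 RPKM with palbociclib and 1, 1 and 2 RPKM with the combination, and ITGAX was listed at 0 in each palbociclib library and at 1, 2 and 2 RPKM with the combination.

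Among 32 tested surface receptors and adhesion molecules 11 rose and 4 fell, with a median of 0.34. The share called was 46.9%, beside 6.15% of all genes tested. The inhibitory receptor CD300A rose from 2, 3 and 3 RPKM to 9, 18 and 20 RPKM, and the chemokine receptors CCR1 and CCR2 from 3, 5 and 4 RPKM to 15, 27 and 25 RPKM and from 16, 24 and 21 RPKM to 46, 68 and 67 RPKM. ITGA5, an integrin subunit that binds fibronectin, rose from 13, 15 and 14 RPKM to 40, 46 and 46 RPKM (log2 fold change 1.64, standard error 0.04, adjusted p = 7.35e-08 from limma). CSF3R, the receptor of granulocyte colony-stimulating factor, rose from 5 RPKM in each palbociclib library to 9, 13 and 17 RPKM (adjusted p = 0.000959 from limma, and 0.00276 without the replicate number). The pattern recognition receptor TLR2 fell from 9, 10 and 11 RPKM to 5, 5 and 6 RPKM, the lectin CLEC12A from 11, 10 and 14 RPKM to 7, 6 and 7 RPKM, and the Fc receptor FCGR1A from 16, 14 and 14 RPKM to 11, 9 and 10 RPKM. The monocyte marker CD14 was listed at 0 RPKM in all 12 libraries.

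Subunits of the NADPH oxidase, the enzyme of the oxidative burst, were measured for 7 genes, of which 2 rose and none fell (median 0.23). CYBB, the catalytic subunit, rose from 25, 34 and 34 RPKM to 54, 78 and 79 RPKM (log2 fold change 1.17, adjusted p = 2.85e-05 from limma, and 0.00195 without the replicate number). NCF1, the organising cytosolic subunit, rose from 5, 4 and 4 RPKM to 35, 57 and 62 RPKM (log2 fold change 3.50), with the limit on near-identical copies given above. The Src-family kinases and adaptors gave 9 increases and 1 decrease among 28 tested genes, with LYN at 18, 21 and 20 RPKM against 30, 33 and 32 RPKM and the phosphatase PTPN6 at 54, 55 and 59 RPKM against 78, 85 and 86 RPKM. The genes listed with the primary granule proteins, which are made in promyelocytes, did not move that way. Of 12 tested, SRGN, the proteoglycan that packs granule contents, rose and LYZ and the serpin SERPINB10 fell, with a median of -0.30. LYZ, lysozyme, went from 918, 1071 and 1266 RPKM to 666, 698 and 730 RPKM (log2 fold change -0.62). MPO, myeloperoxidase, was listed at 1347, 1400 and 1579 RPKM with palbociclib and 1124, 1099 and 1269 RPKM with the combination, and did not pass (log2 fold change -0.31, adjusted p = 0.00215 from limma).

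Transcription factors of blood cells moved in both directions, with 7 that rose and 6 that fell among 33 tested and a median of 0.00. CEBPE, which drives late granulocytic maturation, rose from 48, 39 and 47 RPKM to 131, 131 and 135 RPKM, a 2.97-fold increase (log2 fold change 1.57, standard error 0.06, adjusted p = 1.04e-06 from limma). CEBPB rose from 10, 9 and 9 RPKM to 36, 46 and 40 RPKM, and GFI1, a repressor needed for neutrophil formation, from 56, 58 and 61 RPKM to 90, 93 and 93 RPKM. The spread within each group was small beside these differences. MYB, a factor of immature proliferating cells, fell from 52, 53 and 63 RPKM to 27, 25 and 35 RPKM (log2 fold change -0.96, adjusted p = 8.43e-06). HHEX, a homeobox factor of early progenitors, fell from 19, 20 and 20 RPKM to 11, 9 and 10 RPKM, and VDR, the vitamin D receptor, from 5 RPKM in each palbociclib library to 3, 2 and 2 RPKM. ID1 was listed at 1, 1 and 0 RPKM with palbociclib and 5, 7 and 7 RPKM with the combination but did not pass (adjusted p = 0.00752 from limma). In the list of AP-1 and immediate early factors FOSL1 and FOSL2 fell, IER5 rose, and 7 of 10 tested members did not pass.

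**Figure D2:**
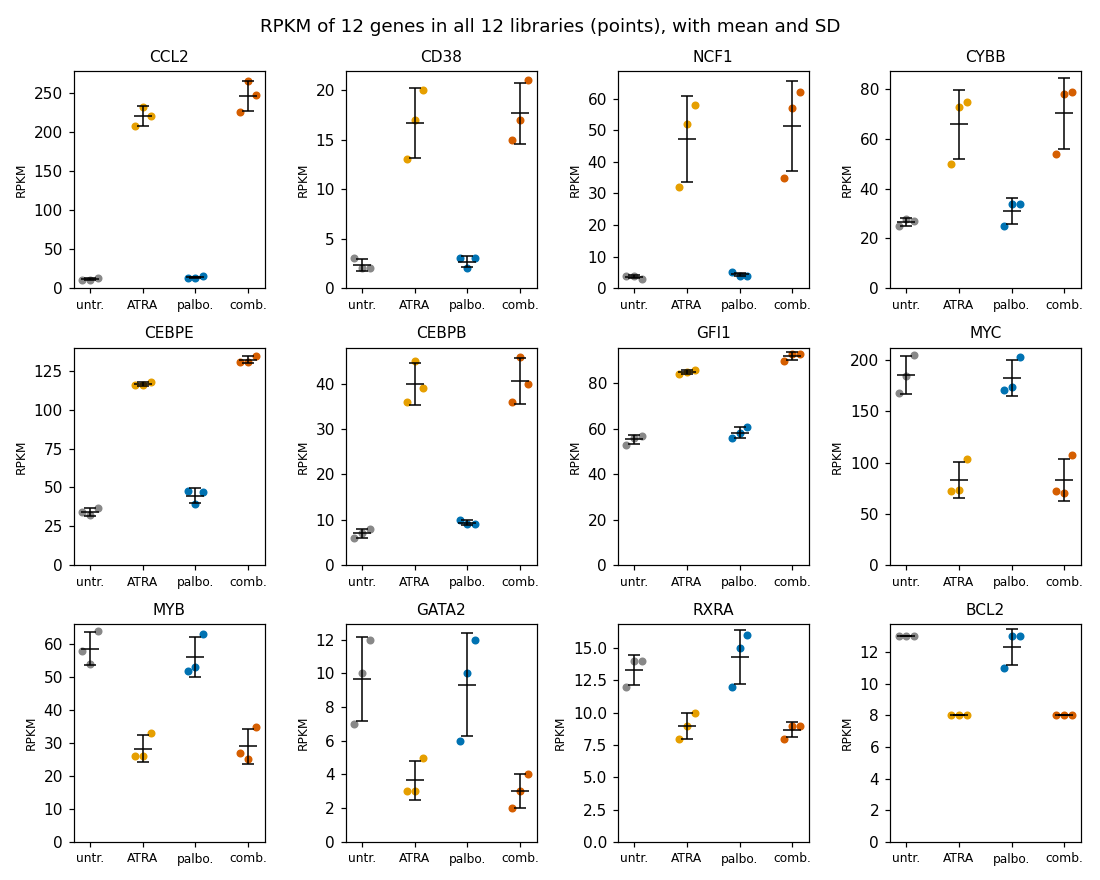
RPKM of 12 named genes in all 12 libraries, with 1 point per library, the group mean and the SD over 3 libraries, and each vertical axis starting at 0. CCL2, CD38, NCF1, CYBB, CEBPE, CEBPB and GFI1 are higher and MYC, MYB, GATA2, RXRA and BCL2 lower in the combination (comb.) than with palbociclib (palbo.), and the ATRA group stands close to the combination in each panel.

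MYC, the transcription factor that drives growth and ribosome production, fell from 171, 174 and 203 RPKM to 72, 70 and 107 RPKM (log2 fold change -1.16, standard error 0.08, adjusted p = 2.88e-05 from limma, and 0.00142 without the replicate number). The lowest palbociclib library was well above the highest combination library. Of 8 tested members of the network of MYC, its partner MAX and their competitors, MYC and MLX fell and none rose. Factors of ribosome biogenesis held 20 decreases and no increase among 96 tested, and 93 had a log2 fold change below 0, with a median of -0.28. The share called was 20.8%, beside 6.15% of all genes tested, whose median log2 fold change was 0.00. This gap was not tested. URB2 fell from 8, 10 and 11 RPKM to 5, 5 and 6 RPKM and POLR1B, a core subunit of RNA polymerase I, from 17, 20 and 23 RPKM to 11, 11 and 13 RPKM. NOP56, a core protein of the methylation guide particles, fell from 90, 72 and 77 RPKM to 69, 54 and 58 RPKM. In NOP56 the groups came close but did not overlap, and the differences within the pairs were alike. Without the replicate number 4 of the 20 decreases passed, and after shifting each library to the same median 14 passed.

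Genes of the integrated stress response, by which cells adjust to amino acid shortage, gave 3 increases and 5 decreases among 39 tested, with a median of -0.16 and 34 below 0. The share called was 20.5%, beside 6.15% of all genes tested, whose median log2 fold change was 0.00. SLC7A5, an importer of large amino acids, fell from 42, 43 and 46 RPKM to 26, 21 and 23 RPKM (log2 fold change -0.91), and TRIB3, a pseudokinase of this pathway, from 23, 20 and 20 RPKM to 12, 11 and 13 RPKM. DDIT4, an inhibitor of mTOR signalling that is on the same list, moved the other way, from 8, 10 and 7 RPKM to 35, 39 and 29 RPKM (log2 fold change 2.03, adjusted p = 4.44e-07 from limma). The BCL2 family, which sets the threshold of apoptosis, held 5 increases and 1 decrease among 14 tested, or 42.9% called. The BH3-only genes BIK, BMF and PMAIP1 rose, BIK from 2, 3 and 3 RPKM to 18, 19 and 23 RPKM (log2 fold change 2.88). The survival genes BCL2A1 and MCL1 rose as well, with log2 fold changes of 1.54 and 0.31, while BCL2 itself fell from 11, 13 and 13 RPKM to 8 RPKM in each combination library. Genes known to promote apoptosis and genes known to oppose it were thus both among the increases. Among inflammatory genes CXCL8, a neutrophil chemokine, rose from 16, 14 and 18 RPKM to 54, 66 and 58 RPKM, and 4 of 23 tested members rose and 2 fell. Of 17 interferon-stimulated genes tested IRF1 and SAMHD1 rose and none fell (median 0.08). These 2 calls, or 11.8%, are too few to set the list apart from all genes tested.

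Of 14 tested antiproliferative genes 4 rose and none fell, with a median of 0.30. BTG2 rose from 5, 6 and 7 RPKM to 16, 20 and 19 RPKM, and RGCC, GAS7 and TXNIP were the other calls, all 3 lost without the replicate number (adjusted p = 0.00716, 0.00461 and 0.00639 from limma). CDKN1A, the inhibitor p21, was below the filter at 1 RPKM in each palbociclib library and 3, 5 and 4 RPKM with the combination. Feedback phosphatases of MAP kinase signalling moved both ways, with DUSP6 up and DUSP2 and DUSP3 down among 6 tested. Sterol and fatty acid synthesis gave 3 increases, led by SREBF1 at 0.82, and 1 decrease among 28 tested, and histone and chromatin enzymes gave 1 increase, JARID2 at 0.66, among 37. These shares, 14.3% and 2.70%, rest on few calls and stand beside 6.15% of all genes tested.

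**Figure D3:**
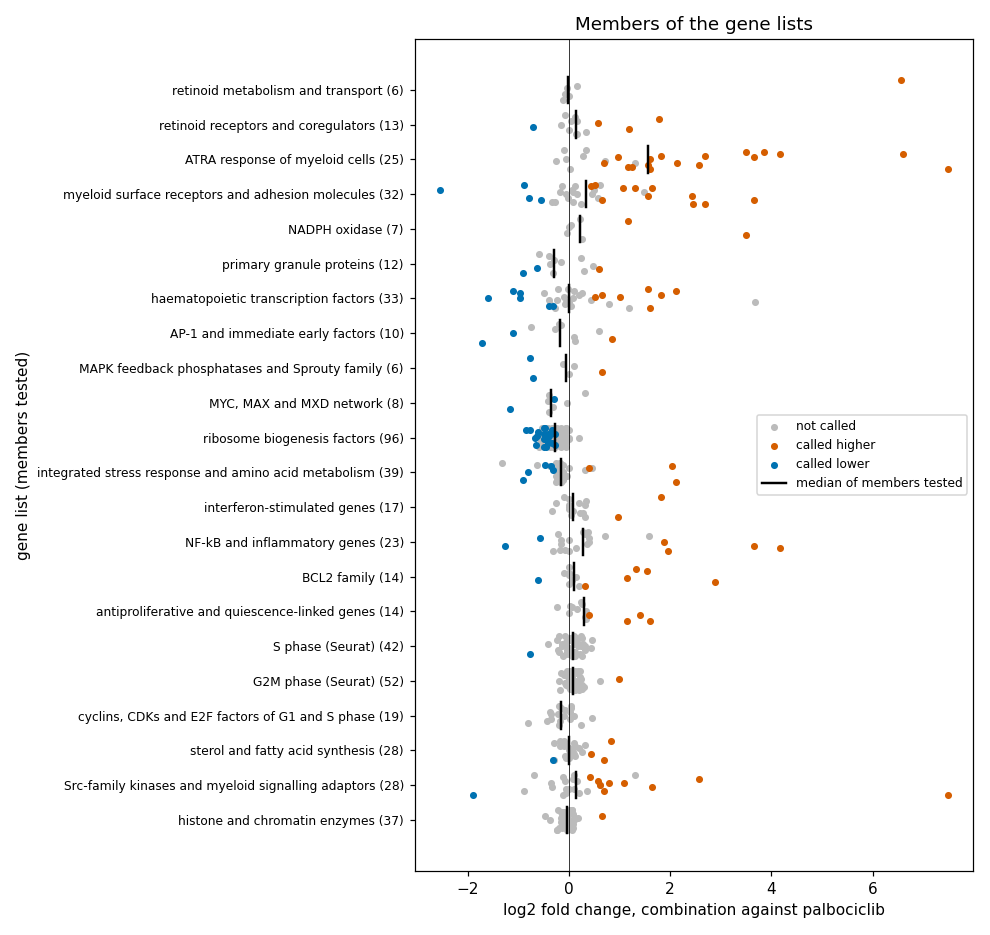
Log2 fold change of each tested member of the 22 gene lists between combination and palbociclib, with the number tested in parentheses, called members in colour and the median as a vertical bar. The ATRA response list lies farthest to the right with a median of 1.57, the ribosome biogenesis factors lie left of 0 at -0.28, and the S phase and G2M lists centre near 0 at 0.07 and 0.08.

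In cells given palbociclib, few genes of the cell cycle lists were called when ATRA was added. In the S phase list of Seurat 1 of 42 tested genes fell, POLR1B, which also belongs to ribosome biogenesis, and none rose. In the G2M list 1 of 52 rose, LBR, a receptor of the nuclear envelope, and none fell. None of the 19 tested cyclins, cyclin-dependent kinases and E2F factors passed. At 2.38%, 1.92% and 0% these shares lay below the 6.15% of all genes tested. They rest on 1 call or none per list, and the gap was not tested. CCNE1, cyclin E1, was listed at 5 RPKM in each palbociclib library and 5, 4 and 4 RPKM with the combination (log2 fold change -0.21, adjusted p = 0.0805 from limma), and E2F1 at 5, 5 and 4 RPKM against 4, 4 and 3 RPKM (adjusted p = 0.0187 from limma). CDC6, a loader of replication origins, was listed at 14, 16 and 13 RPKM with palbociclib and 19, 24 and 16 RPKM with the combination and did not pass (log2 fold change 0.44, adjusted p = 0.00517).

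How far the effect of ATRA depended on palbociclib was tested gene by gene as the difference between the ATRA effect with it and without it. These effects come from separate libraries, since combination against palbociclib and ATRA against untreated share none, although both came from the same fit. Same-numbered ATRA and combination libraries also deviated together from their group means, with correlations of 0.782 to 0.908. The agreement between the effects is therefore not fully independent. ATRA alone raised 376 genes and lowered 346, which is 4.81% and 4.42% of the genes tested. Of the 280 genes that rose in the presence of palbociclib, 266 were also called higher with ATRA alone, which is 95.0% of the 280 and 70.7% of the 376. Of the 201 that fell, 180 were also called lower, which is 89.6% of the 201 and 52.0% of the 346. All 481 had the same sign with ATRA alone. In the genes that rose the median effect of ATRA on the log2 scale was 0.99 alone against 0.89 in the presence of palbociclib, and in the genes that fell it was -0.61 against -0.58. Their differences, with minus without palbociclib, ran from -0.26 to 0.12 between the 10th and 90th percentiles for the genes that rose (median -0.07) and from -0.18 to 0.16 for those that fell (median 0.01).

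For that difference 0 of the 7820 genes passed either 0.001 or 0.05 after adjustment in limma. Without replicate 1 in every group, 101 genes above 0 and 108 below passed 0.05, and none passed 0.001. At an unadjusted p-value under 0.05 the signed difference, with minus without palbociclib, was above 0 for 365 genes and below 0 for 259, or 7.98% of all tested. The difference passed the same threshold in 39 of the 280 genes that rose (13.9%) and 20 of the 201 that fell (9.95%). A difference that missed the threshold does not show that the effects were equal, and with 3 libraries per group small differences could not be detected. DDIT4 had the smallest adjusted p-value, 0.0852. It was listed at 4, 5 and 3 RPKM in untreated cells and 30, 33 and 25 RPKM with ATRA, a log2 fold change of 2.86 against the 2.03 given above with palbociclib, and the difference was -0.83 (standard error 0.09, unadjusted p = 1.09e-05). Its palbociclib libraries, at 8, 10 and 7 RPKM, were each above every untreated library, while the ATRA and combination libraries overlapped. CEBPE stood at 34, 32 and 37 RPKM in untreated cells and 116, 116 and 118 RPKM with ATRA, so its ATRA effect was 1.76 without and 1.57 with palbociclib, a difference of -0.19 (standard error 0.08, unadjusted p = 0.0536). MYC differed by 0.02 between the settings and CCL2 by -0.07.

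**Figure D4:**
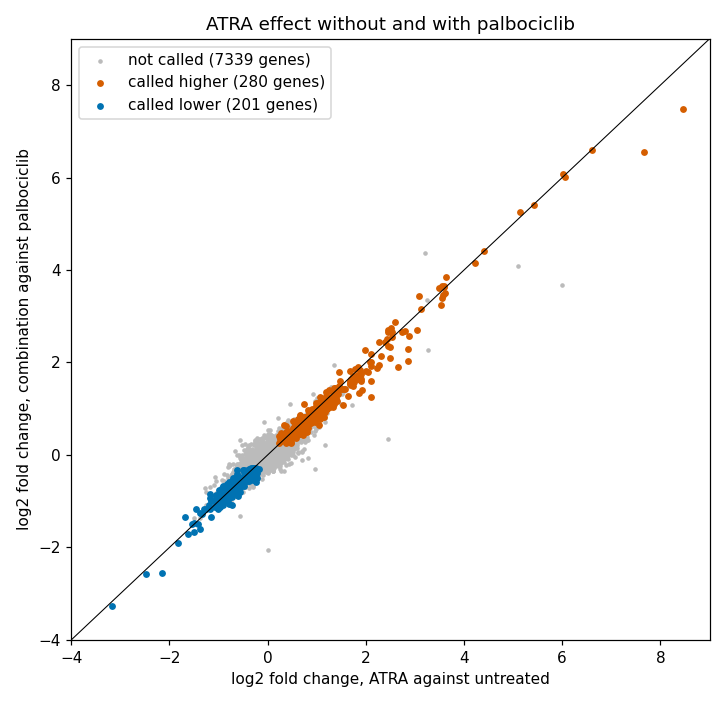
Log2 fold change of each of the 7820 tested genes with ATRA against untreated cells (horizontal) and with the combination against palbociclib (vertical), coloured by the call in the latter, with the line of equal effects. The 280 genes called higher and the 201 called lower lie along the line, and all have the same sign on both axes.

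The S phase list and the list of cyclins, kinases and E2F factors had differences mostly above 0. With ATRA alone 12 of the 42 S phase genes and 7 of the 19 cyclins, kinases and E2F factors were called lower and none higher, against 1 and 0 in cells given palbociclib. The difference was above 0 for 42 of 42 and 16 of 19 genes, with medians of 0.39 and 0.18 against 0.00 over all genes tested, and at an unadjusted p-value under 0.05 for 38 and 8, while the smallest adjusted p-value in either list was 0.157 from limma. SKP2, a ubiquitin ligase subunit that targets cell cycle inhibitors, was listed at 43, 46 and 46 RPKM in untreated cells, 29, 32 and 32 RPKM with ATRA, 29, 32 and 30 RPKM with palbociclib and 25, 28 and 26 RPKM with the combination. Its log2 fold change was -0.54 without palbociclib and -0.20 with it, a difference of 0.33 (standard error 0.05, unadjusted p = 0.000124). CCNE1 was listed at 15, 13 and 15 RPKM in untreated cells and 9, 8 and 8 RPKM with ATRA, so that each ATRA library lay above every palbociclib library at 5 RPKM. MCM4, a helicase subunit of replication, went from 79, 80 and 82 RPKM to 52, 56 and 54 RPKM with ATRA, and was listed at 40, 41 and 36 RPKM with palbociclib and 38, 41 and 33 RPKM with the combination. The last pair of groups overlapped and the first did not. Of the 52 G2M genes 36 had a difference above 0 and 5 were at an unadjusted p-value under 0.05, with a median difference of 0.06. Of the 96 ribosome biogenesis factors 71 had a difference above 0 and 23 below, beside 3734 and 3834 of all 7820 genes tested. Their median difference was 0.05 and 3 were at an unadjusted p-value under 0.05. Lists outside the cell cycle also lay to a side, with 23 of 28 sterol and fatty acid synthesis genes above 0, 7 of them at an unadjusted p-value under 0.05, and 32 of 39 integrated stress response genes below 0, 11 of them at that threshold.

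**Figure D5:**
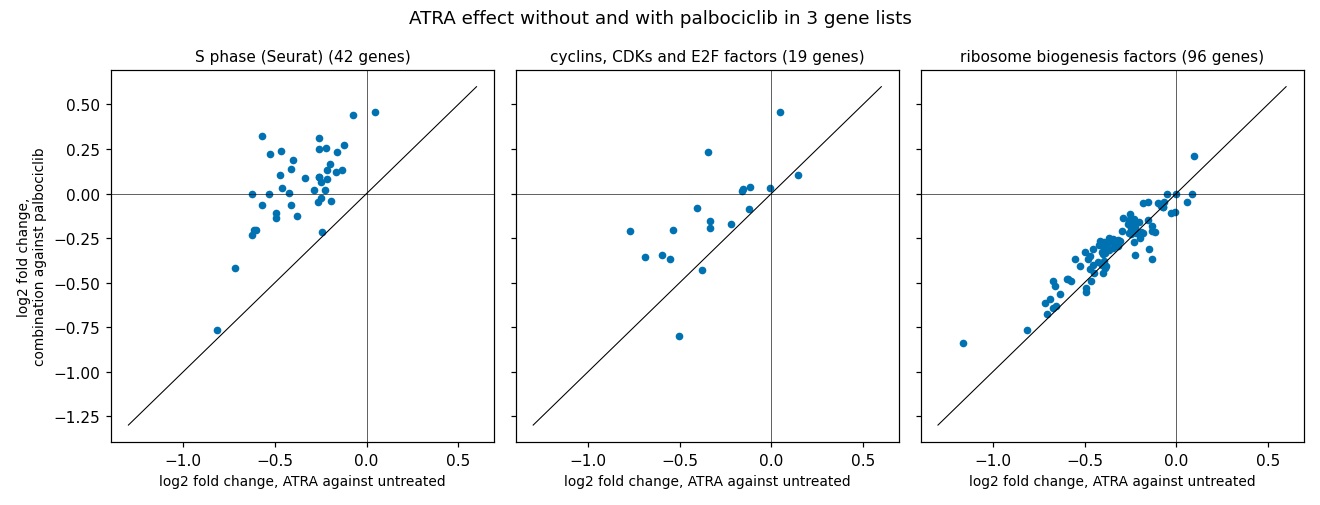
Log2 fold change with ATRA against untreated cells (horizontal) and with the combination against palbociclib (vertical) for each tested gene of the S phase list, the cyclins, CDKs and E2F factors, and the ribosome biogenesis factors, with the line of equal effects. The S phase genes lie above the line in all 42 cases, and of the 96 ribosome biogenesis factors 71 lie above it and 23 below, with a median difference of 0.05.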

How the data were processed

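The authors prepared poly(A) libraries from HL-60 cells, mapped the reads to hg38 with HISAT2 and counted them per gene with htseq-count. The deposited values are RPKM that the authors rounded to whole numbers, handled here as a score with a step of 1, since no count model applies to them. The design had assumed unrounded RPKM. Genes that reached 5 RPKM in 3 or more of the 12 libraries were tested with limma 3.58.1 (R 4.3.3, eBayes with a trend) on log2(RPKM + 0.1), with 1 mean per group and the replicate number as a block. Fold changes are on that scale, where the pseudocount shrinks changes of low genes listed above 0. For genes listed at 0 in a group the pseudocount sets the change, which can then be too large. Adjusted p-values are Benjamini-Hochberg over all genes tested, and a gene was called under 0.001. The labels and methods do not say what replicate numbers share. The 3 same-numbered pairs of palbociclib and combination libraries correlated at 0.438 to 0.702 in their deviations from group means, and other pairs at -0.506 to 0.148. Deviations from a group mean sum to 0, so positive correlations of same-numbered pairs push those of the other pairs below 0. The members and the gene lists were chosen with earlier results of these data known. Named genes are the top 12 in each direction by log2 fold change, among called genes with libraries that did not overlap and a mean of at least 5 RPKM in the higher group, and members of the lists. Within the lists the called genes with large changes come first, and further examples were chosen with their values in view. Gene coordinates are from GENCODE v44 and promoters from RefSeq. The fitting script was tested on simulated data. Tables and plots used Python 3.11.15.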

Additional observations from a re-analysis of the deposited data

How the results depend on the processing

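Of the 481 genes called between combination and palbociclib, each kept its direction in every alternative in which it was tested, and the number called moved. Without the replicate block 165 genes were higher and 78 lower, of which 241 were among the 481. The paired fit of only the 6 libraries gave 0 and 0, or 1238 and 1562 before adjustment (p under 0.05). An adjusted p-value under 0.05 gave 790 and 1049. With libraries left out the counts ran from 0 to 181 higher and 0 to 116 lower, and they fell by more than 1.5 times whichever of the 6 libraries was left out. Without replicate 3 in all groups they were 0 and 0 (981 and 1167 at an unadjusted p-value under 0.05) and without replicate 2 they were 2 and 0 (811 and 1040). These fits have fewer libraries for the spread. Limma on a pseudocount of 1, on quantile-normalized or median-shifted values, with a filter at 10 RPKM or without the variance trend gave 251 to 313 higher and 175 to 211 lower. The 9 treated libraries alone gave 245 and 166, but only 249 of the 481 genes were still called. With the filter at 1 RPKM the counts were 274 and 177, and 278 of the 481 were still called. At 0.001 the difference between the ATRA effects was called for 0 genes in every alternative but the filter at 1 RPKM, where 90 passed, 82 of them with identical rounded values within each of the 4 groups and 72 with no library at 5 RPKM. At an adjusted 0.05 it passed for 101 genes above 0 and 108 below without replicate 1. With the filter at 1 RPKM it passed for 74 above 0 and 40 below. It passed for 1 gene below 0 under 5 other alternatives, and for 0 in the main fit. It could not be computed from the 6 libraries or the 9 treated ones. Replicate numbers deviated together less in untreated cells, with correlations of 0.088 to 0.367 between untreated and ATRA libraries. Rounding limits values of a few RPKM, and the depth behind them is unknown.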

Other observations

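Some gene families were looked at by symbol after the values had been seen, share members with the lists, and are given as values without a test of the family. Of 5 tested serpins SERPINB1 was called higher and SERPINB2, SERPINB8 and SERPINB10 lower in the combination than with palbociclib. SERPINB10 was listed at 14, 13 and 20 RPKM with palbociclib and 9, 6 and 10 RPKM with the combination. Of 6 tested receptors of the LILR and CD300 families 4 were called higher and none lower, and CD300LB among them was listed at 0 in each palbociclib library and at 2, 5 and 5 RPKM with the combination.

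Solute carriers gave 7 increases and 13 decreases among 97 tested, with a median log2 fold change of -0.16. Over all genes tested 3.58% were called higher and 2.57% lower, with a median of 0.00. Sugar transporters lay on both sides, with SLC2A5 and SLC2A6 called higher and SLC2A1 lower, the last from 7, 7 and 8 RPKM to 4, 4 and 5 RPKM. Ribosomal protein genes had 0 calls among 81 tested and a median of 0.06, with 76 above 0, beside the median of -0.28 of the ribosome biogenesis factors. The small nucleolar RNA host genes named SNHG had 0 calls among 12 tested and a median of -0.19, with 11 below 0. As 6.15% of all genes tested were called, 0 calls among 12 genes cannot be told apart from that share.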
